A study of Mus musculus with 12 samples.

Results

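The 9 genes described here are those by which B cell subsets of the mouse spleen are commonly told apart: Fcer2a for follicular cells, Cr2, Cd1d1, Cd9, Dtx1, Notch2 and Mzb1 for marginal zone cells, and Cd93 and Cd24a for transitional cells, with Cd9 and Mzb1 also high in B-1 cells. They were taken by gene symbol from the count tables, which hold 24046 symbols, and all 9 were present and passed the filter on low counts. The samples were spleen B cells sorted as follicular (FO) and labelled as primary cells, either Jmjd1c WT or Jmjd1c KO. Jmjd1c encodes a JmjC-domain protein of the histone demethylase family. Each genotype was sampled at 0 h and after 2 h of anti-IgM, which cross-links B cell receptors, and this gave 4 groups of 3 libraries of poly(A)-selected RNA. The labels give no age, sex, strain, sorting gate, way of making the knockout or culture without anti-IgM. Time in culture and receptor cross-linking therefore cannot be told apart.

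As background, immature B cells reach the spleen as transitional cells, which carry CD93 (the antigen of antibody AA4.1) and much CD24, and mature into follicular or marginal zone cells. Marginal zone development depends on the receptor NOTCH2, which is cut after it binds the ligand DLL1 on stromal cells. The freed part enters the nucleus and joins the DNA-binding protein RBPJ, and Cr2 and Dtx1 are known to follow this signal. Follicular cells carry much CD23, the product of Fcer2a, and moderate CD21, the product of Cr2. Marginal zone cells carry little CD23 and much CD21 and CD1d. In bulk RNA, a change in the number of cells of a subset and a change of RNA per cell cannot be told apart.

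The stretches of DNA just before the starts of Cr2, Notch2 and Fcer2a are shown because these genes were respectively the member called higher at 2 h in WT cells, the member with the largest decrease and the defining follicular marker. They come from RefSeq on GRCm38.p6, are written 5′ to 3′ on the gene's strand, and stop before any annotated exon or the gene's own span. Capitals mark TGGGAA, the core letters that RBPJ is known to bind, searched on both strands.
Cr2, chr1:195176881-195176969, minus strand: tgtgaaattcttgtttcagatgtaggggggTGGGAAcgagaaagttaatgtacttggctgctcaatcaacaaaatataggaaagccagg
Notch2, chr3:98013288-98013526, plus strand: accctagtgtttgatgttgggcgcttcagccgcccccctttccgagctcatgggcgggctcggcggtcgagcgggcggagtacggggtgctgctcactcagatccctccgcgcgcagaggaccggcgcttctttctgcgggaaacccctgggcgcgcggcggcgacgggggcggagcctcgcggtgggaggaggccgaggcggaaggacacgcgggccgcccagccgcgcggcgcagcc
Fcer2a, chr8:3694176-3694424, minus strand: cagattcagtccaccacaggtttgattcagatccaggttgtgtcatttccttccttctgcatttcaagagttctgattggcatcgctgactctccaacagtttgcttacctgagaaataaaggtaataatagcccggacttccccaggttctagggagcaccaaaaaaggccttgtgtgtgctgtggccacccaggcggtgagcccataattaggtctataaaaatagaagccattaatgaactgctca
The letters TGGGAA stood 220 bases before the listed Cr2 start and were not in the Notch2 window. That Cr2 start lies within the gene's own span, so that the printed stretch ends short of it. Among the 250 bases before a start, the letters were present in 21.6% of all 32851 promoters of the table (20.4% for genes tested). Of the 5 members with an entry there, 3 held them in at least 1 window: Cr2, Cd9 (211 bases before its start) and, at other starts than the one shown, Fcer2a. Fcer2a had more than 1 window, whereas the share counts each promoter singly, so the 2 are not measured alike. The window of Dtx1 did not hold the letters.

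Before the members are described, 1 library has to be named. Total counts ran from 5666013 to 14153396 a library, and the lowest belonged to KO 2 h replicate 1. There the 45S ribosomal RNA row Rn45s took 52.3% of the counts, against 24.8% in WT 2 h replicate 1, 12.9% to 15.5% in the 4 libraries of batch 2 and at most 1.09% in the other 6. The same library had 529.7 CPM (counts per 1e6 of the TMM-scaled library size) of the proliferation gene Mki67. In WT 2 h replicate 1 and the 4 libraries of batch 2 Mki67 was at 67.2 to 138 CPM, against 8.81 to 14.5 in the other 6. The summed level of 8 neutrophil and granule genes was 535 CPM in KO 2 h replicate 1, of which Mpo made up 444. Elsewhere Mpo followed the same split, with 49.9 to 115 CPM in WT 2 h replicate 1 and batch 2 and 0.743 to 3.18 in the other 6. For the 9 markers and the lists, results in KO cells that moved with KO 2 h replicate 1 are also given without that library. The knockout was checked on Jmjd1c itself: it read 360.0, 326 and 289 CPM in WT and 231, 236 and 197 CPM in KO at 0 h, and 322, 295 and 269.7 in WT and 208, 213 and 199 in KO at 2 h. All KO libraries were below all WT libraries, with log2 differences of -0.56 ± 0.13 (SE) at 0 h and -0.52 ± 0.13 at 2 h that were not called (edgeR adjusted p = 0.9999 and 0.887). A count over the whole gene does not show whether the deleted part was read.

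At 0 h the follicular marker Fcer2a was the most abundant of the 9 for its length. Per kilobase of exon, WT cells held 146 ± 21.5 CPM of Fcer2a (SD, n = 3), and each of the 3 libraries was above each library of any other member. Cd24a followed with 88.4 ± 16.5 CPM per kb, Notch2 with 86.2 ± 9.03 and Mzb1 with 81.2 ± 18.8, and these 3 overlapped. Dtx1, a ubiquitin ligase of the Notch pathway, held 29.0 ± 5.95 and Cr2 15.7 ± 2.29 CPM per kb, and the libraries of these 2 genes did not overlap. Cd93 with 5.36 ± 0.816, Cd1d1 with 5.13 ± 1.64 and Cd9 with 3.48 ± 1.90 CPM per kb were lowest and overlapped among themselves. The order in KO cells at 0 h differed only in Mzb1 (89.7 ± 19.7) standing before Notch2 (88.8 ± 3.22), again within their spread. At 2 h Fcer2a stayed first and Cd24a second by the mean in both genotypes. In KO 2 h replicate 1, however, Fcer2a was at 72.5 CPM per kb, below each KO 2 h library of Cd24a (94.5 to 111). Notch2 moved to the sixth place at 2 h, with 29.8 ± 3.53 in WT and 26.1 ± 1.84 CPM per kb in KO.

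**Figure D1:**
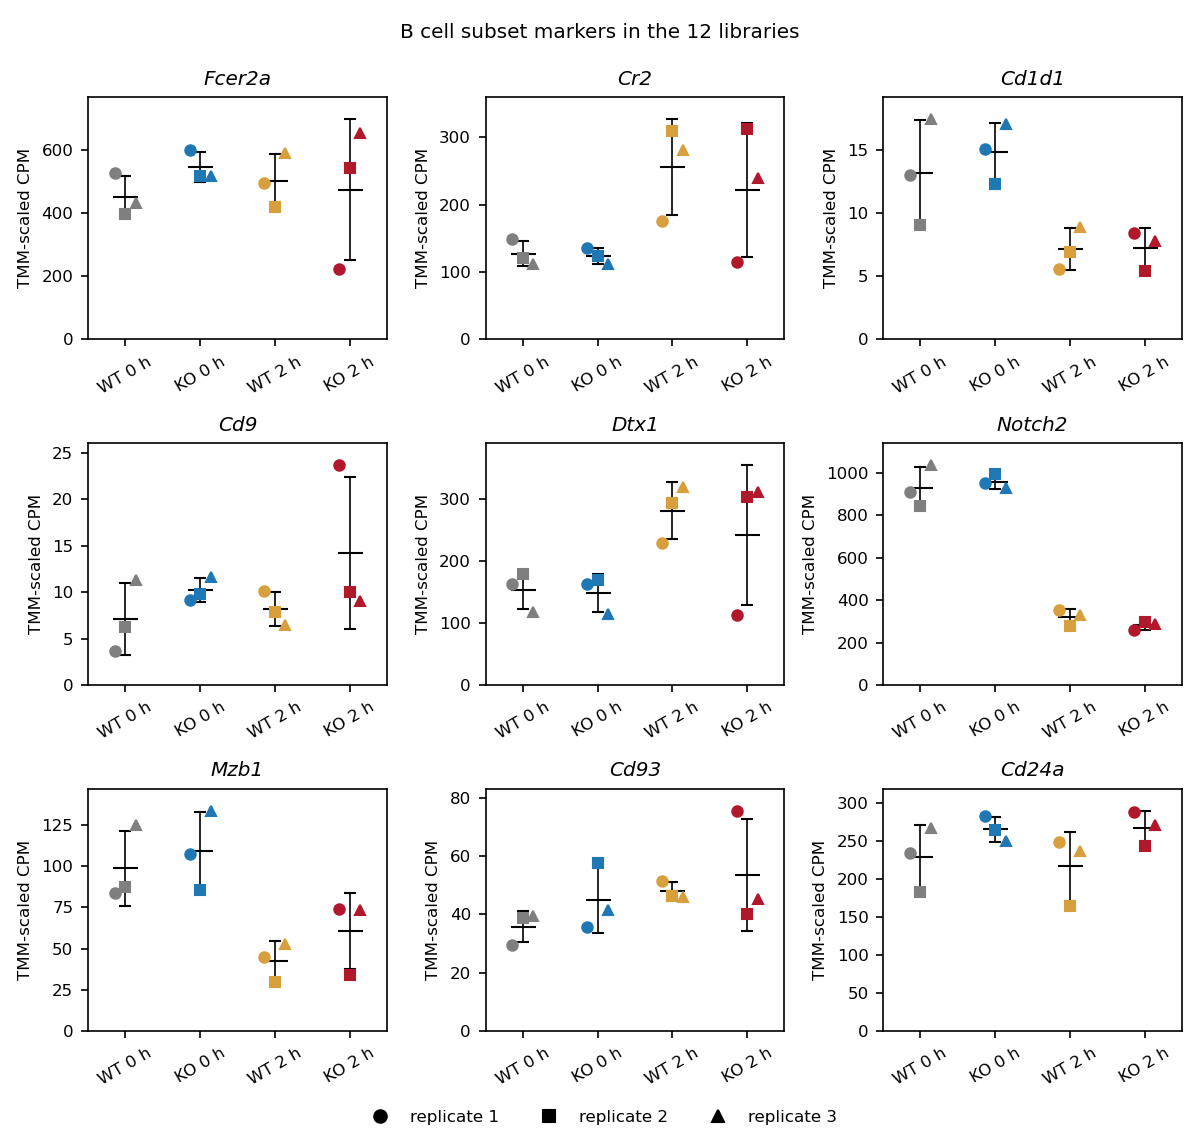
Level of each of the 9 markers (y axis, TMM-scaled CPM) in the 4 groups (x axis); points are libraries, with the replicate number as the marker shape, and bars give the mean and SD. Notch2 sat between 844 and 1035 CPM in all 6 libraries at 0 h and between 259 and 354 CPM in all 6 at 2 h.

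Each list of genes that define other cells summed to less than the B cell genes in every library. The summed level of 9 pan-B cell genes lay between 9583 and 13763 CPM in all 12 libraries. Of that sum Cd74 alone made up 6232 to 8496 CPM. T cell markers summed to 84.3 to 217 CPM over 9 genes, macrophage and monocyte markers to 9.69 to 36.8 over 10, dendritic cell markers to 11.3 to 44.3 over 7 and natural killer cell markers to 8.39 to 20.6 over 6. Lck made up 37.9 to 159 CPM of the T cell sum, and each other gene of that list was at most 23.0 CPM. In KO cells Lck itself rose over the 2 h with anti-IgM, by 1.42 ± 0.24 (edgeR adjusted p = 0.00132). In WT cells Lck lay between 37.9 and 61.3 CPM at 0 h and between 108 and 159 CPM at 2 h. In each genotype 1 of the 9 T cell genes was called higher at 2 h. Neutrophil and granule genes summed to 15.96 to 535 CPM over 8, platelet markers to 5.26 to 69.7 over 5 and erythroid markers to 1.04 to 44.0 over 7. Markers of stroma, endothelium and follicular dendritic cells summed to 57.4 to 233 CPM over 9, with 3 to 5 of them at 0 in a library. Of that sum Pecam1, an adhesion molecule that lymphocytes also carry, made up 49.7 to 224 CPM, while Ccl21a was at 0 in all 12 libraries. The pre-B cell genes Vpreb1 and Igll1 were at 0 in 9 of the 12 libraries each, and reached at most 0.124 and 1.02 CPM elsewhere. Rag2 was at most 0.794 CPM at 0 h, and at 2 h it was at 0 in 5 of 6 libraries. Marco, a scavenger receptor of marginal zone macrophages listed here with the marginal zone genes, was at most 0.338 CPM. Other genes of early B cells were present: at 0 h Rag1 lay between 2.27 and 4.87 CPM and Vpreb3 between 12.3 and 24.4 CPM.

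**Figure D2:**
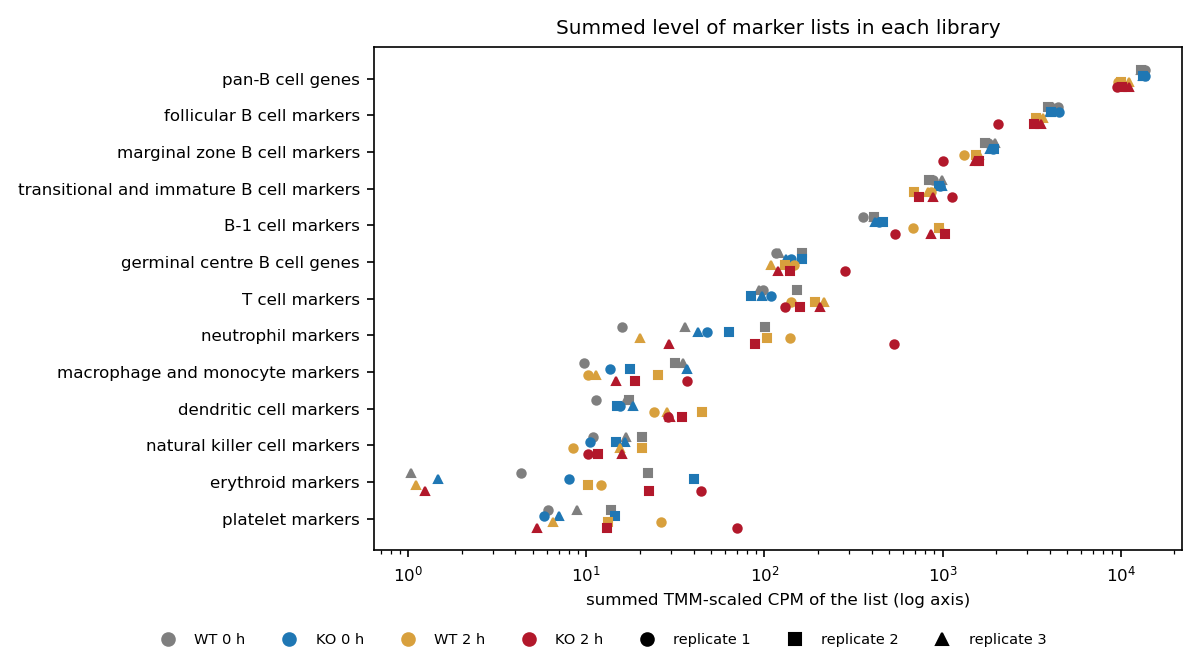
Summed TMM-scaled CPM of marker lists (x axis, log axis) in each library, with colour for the group and marker shape for the replicate. The pan-B cell sum stayed between 9583 and 13763 CPM, and KO 2 h replicate 1 stood apart in the neutrophil list at 535 CPM.

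Over the 2 h with anti-IgM, WT cells gained Cr2 and lost Notch2, Mzb1 and Cd1d1, so that 4 of the 9 markers were called (edgeR quasi-likelihood test, adjusted p under 0.05), 1 higher and 3 lower. Among all 12242 genes tested, 19.8% were called in WT, 10.7% higher and 9.06% lower. In KO cells Notch2 and Cd1d1 were called, both lower, which is 2 of the 9 against 27.1% of all genes. With KO 2 h replicate 1 left out, 5 of the 9 were called in KO, 2 higher and 3 lower, against 30.8% of all genes. The groups of libraries did not overlap for 6 of the 9 in WT and for 3 of the 9 in KO, against 43.9% and 37.5% of all genes. Of these in WT, Cr2, Dtx1 and Cd93 were higher (21.3% of all genes were) and Cd1d1, Notch2 and Mzb1 lower (22.7%). In KO the same 3 genes were lower, against 19.6% of all genes, and none was higher. The median log2 change of the 9 was 0.15 in WT and 0.0093 in KO, beside 0.0091 and 0.043 over all genes tested, and in KO it was -0.068 without KO 2 h replicate 1. Of 9 early response genes to anti-IgM, 6 were called higher in each genotype, among them Egr2 with a log2 change of 3.05 ± 0.28 in WT and 2.95 ± 0.28 in KO.

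**Figure D3:**
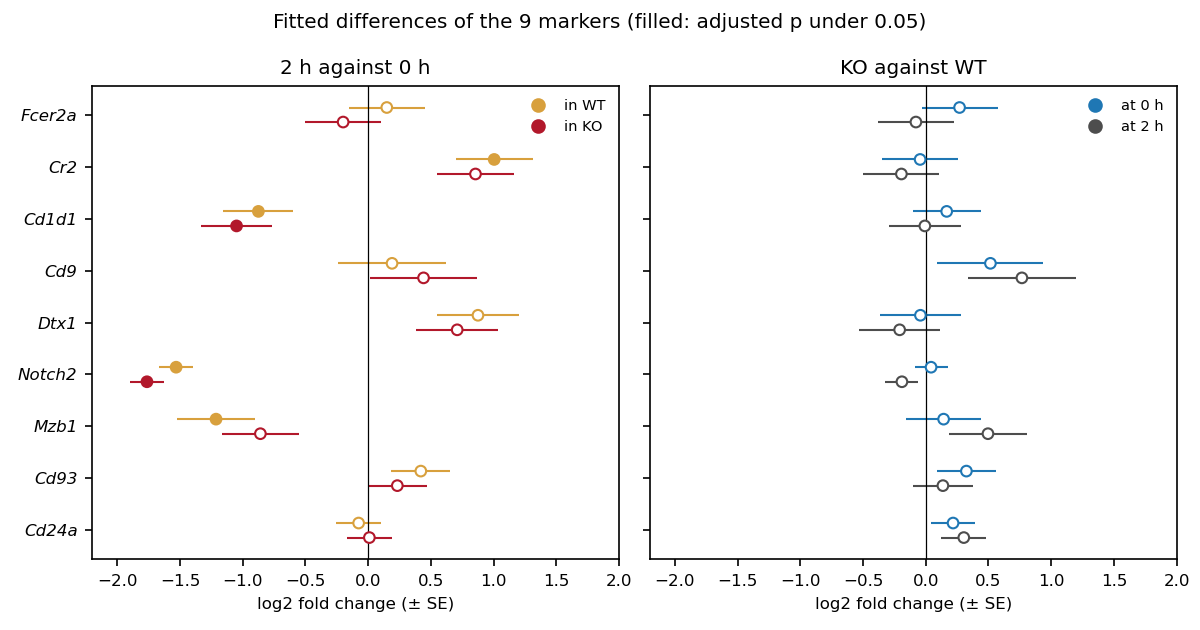
Fitted log2 fold changes with SE (x axis) of the 9 markers (y axis), on the left 2 h against 0 h within each genotype and on the right KO against WT at each time; filled points had an adjusted p under 0.05. Notch2, at -1.53 in WT and -1.76 in KO, stood farthest from 0, and no point was filled for KO against WT.

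Notch2 encodes the receptor that directs B cells to the marginal zone (chr3:98013538-98150367, plus strand, protein coding, in 34 merged exon blocks). WT libraries held 910.0, 844 and 1035 CPM at 0 h and 354, 279.5 and 332 CPM at 2 h. KO libraries held 952, 995 and 926 CPM at 0 h and 259, 297 and 289.7 CPM at 2 h. Every 2 h library was below every 0 h library, in each genotype and across them. The fitted change was -1.53 ± 0.13 in WT (adjusted p = 7.26e-05) and -1.76 ± 0.14 in KO (adjusted p = 2.39e-05), a level 2.89-fold and 3.40-fold lower. By p value it was gene 20 of the 12242 in WT and gene 15 in KO. Paired within animals, the log2 difference ran from -1.88 to -1.36 in the 6 animals. KO 2 h replicate 1, which stood apart for other genes, gave 259 CPM here, close to the 279.5 to 354 of the other 2 h libraries, and without it the KO change was -1.71. A further annotated transcript of the same strand, Gm42820, shares 541 exon bases with Notch2, and its reads may be counted with it.

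Cr2 encodes CD21, the receptor for complement fragments that lowers the threshold of the B cell receptor (chr1:195136811-195176880, minus strand, protein coding). Its CPM was 148, 121 and 113 in WT at 0 h and 175, 309.6 and 281 at 2 h. In KO it was 135, 123 and 112 at 0 h and 115, 312 and 239 at 2 h. The WT groups did not overlap, and replicate 1 was the lowest 2 h library in both genotypes, at a level inside the 0 h range in KO. The change was 1.004 ± 0.31 in WT (adjusted p = 0.0387), a 2.01-fold increase, and 0.86 ± 0.31 in KO (adjusted p = 0.0580). Without KO 2 h replicate 1 the KO change was 1.16 (adjusted p = 0.00241), and DESeq2 on all libraries called it too (0.0185). The WT call was lost when the animal entered as a block (adjusted p = 0.0801) and without any one of WT 0 h replicates 1 to 3, KO 0 h replicates 1 to 3 or WT 2 h replicates 2 and 3 (0.0551 to 0.157). With neither 2 h library of batch 1, the change was 1.17 in WT (adjusted p = 4.08e-04) and 1.12 in KO (4.54e-04).

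Genes that all B cells carry were in part lower over the same 2 h: 3 of 9 pan-B cell genes were called lower in WT and 6 of 9 in KO, with none higher, among them Cd79b, a signalling chain of the B cell receptor, at -1.06 ± 0.25 in WT and Pax5, the factor that maintains B cell identity, at -0.82 ± 0.15. Over all genes tested, 9.06% were called lower in WT and 13% in KO. Left without KO 2 h replicate 1, the fit called 6 of 9 lower in KO as well, and 17.1% of all genes higher and 13.7% lower. In KO the same genes were at -0.82 ± 0.25 and -0.74 ± 0.15. Cd81, a tetraspanin that associates with CD21, had a change of -0.24 ± 0.16 in WT and -0.29 ± 0.16 in KO and was not called.

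Dtx1 encodes Deltex, a ubiquitin ligase known to follow NOTCH2 in marginal zone cells (chr5:120680203-120711867, minus strand, protein coding). WT libraries held 163, 178 and 118 CPM at 0 h and 229, 293 and 319 at 2 h. KO libraries held 163, 169 and 114 at 0 h and 112, 302 and 311 at 2 h. All WT 2 h libraries were above all WT 0 h libraries, and in KO replicate 1 was again at the 0 h level. The change was 0.87 ± 0.33 in WT (adjusted p = 0.0831) and 0.71 ± 0.33 in KO (adjusted p = 0.128), so that neither was called. All groups share 1 estimate of the spread, and without KO 2 h replicate 1 both were: 0.87 in WT (adjusted p = 0.00575) and 1.04 in KO (adjusted p = 0.00325). DESeq2 also called Dtx1 in WT (adjusted p = 0.0269), as did edgeR with only the WT libraries fitted (0.00945).

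Over the 12 libraries Cr2 and Dtx1 went together, with a Pearson r of 0.93 on log2 CPM, and of 0.87 after the group means were taken out. Without KO 2 h replicate 1 these were 0.93 and 0.61 over 11 libraries. Notch2 ran the other way from both across the groups, with r = -0.72 with Cr2 and -0.62 with Dtx1, while within groups its deviations had r = 0.017 with those of Cr2 and 0.12 with those of Dtx1. Over the 11 libraries without KO 2 h replicate 1, Notch2 had r = -0.93 with Cr2 and with Dtx1, and its deviations had -0.54 and -0.45. These are descriptions over libraries that share depth, batch and animal.

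**Figure D4:**
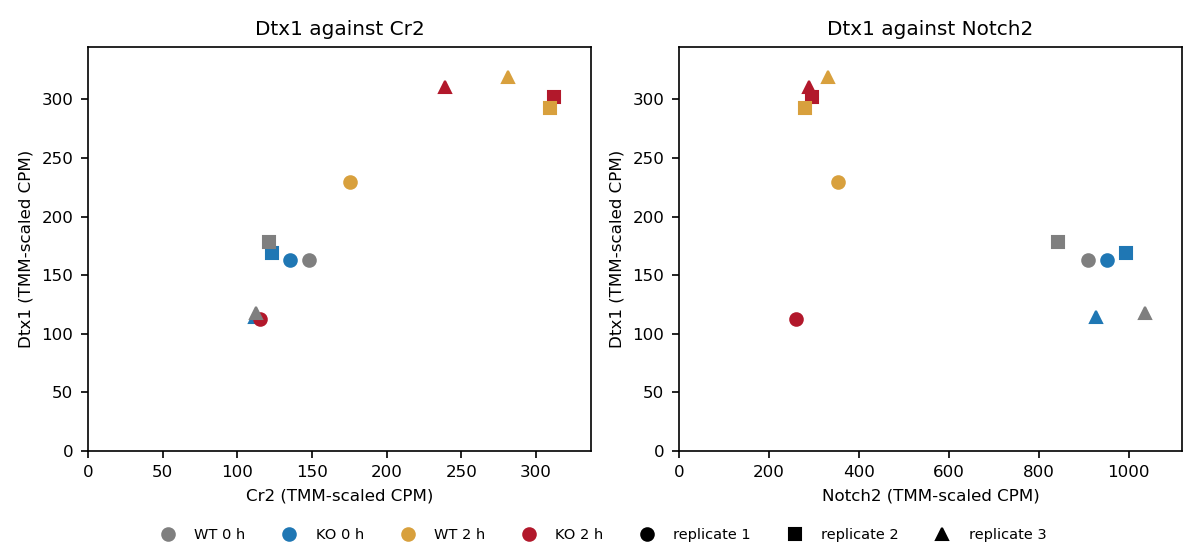
Dtx1 against Cr2 and Dtx1 against Notch2 (axes in TMM-scaled CPM, from 0), 1 point a library, coloured by group and shaped by replicate. Cr2 and Dtx1 lie along 1 line, with KO 2 h replicate 1 (115 and 112 CPM) among the 0 h libraries, whereas for Notch2 that library lies with the other 2 h libraries at 259 CPM.

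Mzb1 encodes a chaperone of the endoplasmic reticulum that helps assemble IgM and is abundant in marginal zone, B-1 and plasma cells (chromosome 18, minus strand, protein coding). Its CPM was 83.7, 87.4 and 125 in WT at 0 h and 44.6, 29.5 and 53.1 at 2 h. In KO it was 107, 85.8 and 134 at 0 h and 74.1, 33.8 and 73.4 at 2 h. The groups did not overlap in either genotype, and batch 2 was the lowest at 2 h in both. The change was -1.21 ± 0.31 in WT (adjusted p = 0.0173), a level 2.32-fold lower, and -0.86 ± 0.31 in KO (adjusted p = 0.0581). It was lower at 2 h in 6 of 6 animals, with log2 differences from -1.57 to -0.54. With the batch as a block the KO change was -0.90 (adjusted p = 0.00407), with the animal as a block -0.91 (0.0100), and without KO 2 h replicate 1 it was -1.01 (0.0407). DESeq2 (0.0244) and edgeR with no filter on low counts (0.0480) called it as well. The WT call rested on 2 libraries: leaving out WT 0 h replicate 3 gave an adjusted p of 0.0778, and leaving out WT 2 h replicate 2 gave 0.0815. The neighbouring gene SPATA24 shares 695 exon bases with Mzb1 on the same strand in the GENCODE annotation, so reads from that stretch are uncertain.

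Among 14 tested genes of plasmablasts and plasma cells, 2 were called higher and 2 lower in WT, and 1 higher and 2 lower in KO, against 10.7% and 9.06% of all genes in WT and 14.1% and 13% in KO. The median change was -0.051 in WT and 0.026 in KO. When KO 2 h replicate 1 was left out, 2 were called higher and 2 lower in KO. The regulator Irf4 rose by 2.40 ± 0.31 in WT and 2.09 ± 0.31 in KO. Prdm1, which encodes the plasma cell factor BLIMP1, rose by 0.96 ± 0.24 in WT (adjusted p = 0.0167) and had a change of 0.24 ± 0.24 in KO (adjusted p = 0.480), or 0.41 without KO 2 h replicate 1 (adjusted p = 0.218). The difference between the genotypes was not called for any gene. Sec11c, a subunit of the signal peptidase, was lower with Mzb1, at -0.75 ± 0.21 in WT and -0.80 ± 0.21 in KO. Sdc1, the plasma cell surface marker CD138, lay between 63.0 and 81.2 CPM in WT and between 40.2 and 56.3 in KO at 0 h. At 2 h it lay between 51.0 and 81.5 CPM in WT and between 29.7 and 45.1 in KO. The KO libraries were thus below the WT libraries at both times, as for 2.9% of all genes at 0 h and 3.6% at 2 h. The share of genes with KO below WT at both times together was not computed. The genotype difference of Sdc1 was not called.

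Cd1d1 encodes CD1d, which presents lipids to NKT cells (chr3:86995834-87012358, minus strand, protein coding). It was a low gene, with 25 to 286 counts a library. WT libraries held 13.0, 9.05 and 17.5 CPM at 0 h and 5.59, 6.96 and 8.95 at 2 h, and KO libraries 15.1, 12.3 and 17.1 and then 8.46, 5.44 and 7.80. The groups did not overlap in either genotype, although WT 2 h replicate 3 (8.95) and WT 0 h replicate 2 (9.05) nearly met. The change was -0.88 ± 0.28 in WT (adjusted p = 0.0463) and -1.05 ± 0.28 in KO (adjusted p = 0.0174), and 6 of 6 animals were lower at 2 h. The WT call was lost without both 2 h libraries of batch 1 (adjusted p = 0.0773), with only WT libraries fitted (0.0514), without the filter on low counts (0.0675) and without any one of 9 of the 12 libraries, among them each WT 2 h library (0.0504 to 0.206). In KO it was lost without KO 0 h replicate 1 (0.0507), KO 0 h replicate 3 (0.0638) or KO 2 h replicate 2 (0.0658). The near-identical copy Cd1d2 had 0 to 7 counts a library, so that few reads were assigned to it.

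Cd9 encodes a tetraspanin of marginal zone and B-1 cells (chr6:125460266-125494760, minus strand, protein coding). Its CPM was 3.73, 6.27 and 11.4 in WT at 0 h and 10.1, 7.93 and 6.52 at 2 h. KO libraries held 9.17, 9.85 and 11.7 at 0 h and 23.7, 10.0 and 9.10 at 2 h. The highest value was that of KO 2 h replicate 1, and the groups overlapped in both genotypes. The change was 0.19 ± 0.43 in WT and 0.44 ± 0.43 in KO (adjusted p = 0.808 and 0.459), and without KO 2 h replicate 1 the KO value was -0.10. A transcript of the opposite strand, Gm26728, shares 218 exon bases with Cd9, and reads of the pair may have been counted together. Among 13 tested tetraspanins and partners of CD9, 1 was called lower in WT and 2 in KO and none higher, against 9.06% and 13% of all genes called lower. In KO the number was 5 when KO 2 h replicate 1 was left out. Tspan13 was lower in both, at -0.48 ± 0.15 in WT and -0.52 ± 0.15 in KO.

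Of 18 tested marginal zone genes, which include the 6 members above, 3 were called higher and 4 lower in WT, and 2 higher and 4 lower in KO. Over all genes tested, 10.7% were called higher and 9.06% lower in WT, and 14.1% and 13% in KO. The median change was -0.15 in WT and -0.27 in KO, and with KO 2 h replicate 1 left out it was -0.11 in KO, where 4 were then called higher and 5 lower. The sphingosine 1-phosphate receptor gene S1pr3 had the largest increase of the list, from 5.49 to 8.69 CPM in WT at 0 h to 87.1 to 145 CPM at 2 h, a change of 4.04 ± 0.36 (adjusted p = 7.26e-05) and of 3.79 ± 0.35 in KO. Plxnd1, a semaphorin receptor, rose by 1.45 ± 0.25 in WT and 1.25 ± 0.25 in KO. Tm6sf1 fell by 0.995 in WT and by 0.66 in KO, or by 1.01 there without KO 2 h replicate 1. Of the members in this list, Cr2 was called higher and Notch2, Mzb1 and Cd1d1 lower in WT.

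Fcer2a encodes CD23, the low-affinity IgE receptor of follicular B cells (chr8:3680280-3694174, minus strand, protein coding). WT libraries held 526, 397 and 434 CPM at 0 h and 494, 419 and 589.8 at 2 h. KO libraries held 599, 518 and 518 at 0 h and 224, 542 and 655 at 2 h. The groups overlapped in both genotypes, and KO 2 h replicate 1 was the lowest of the 12 libraries. The change was 0.15 ± 0.30 in WT (adjusted p = 0.788; 95% interval from the SE -0.45 to 0.74) and -0.20 ± 0.30 in KO (adjusted p = 0.650; -0.79 to 0.39). Without KO 2 h replicate 1 the KO value was 0.13. Within animals the difference ran from -1.42 in KO replicate 1 to 0.44 in WT replicate 3, with 4 of 6 animals higher at 2 h.

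Of 8 tested follicular genes, Fcer2a included, none was called higher, and 2 were called lower in WT and 4 in KO. Of all genes tested, 9.06% were called lower in WT and 13% in KO. The median changes of the list were -0.46 and -0.84, beside 0.0091 and 0.043 over all genes. The KO values moved with KO 2 h replicate 1: when it was left out, 2 were called higher and 4 lower, with a median of -0.58. The 2 were Ccr7 and Cxcr5, the receptor that guides cells into follicles, which then had a KO change of 0.54 ± 0.11 (adjusted p = 0.00298), against 0.25 ± 0.25 (0.481) with it. Klf2, a transcription factor of resting recirculating lymphocytes, fell by 1.69 in WT (adjusted p = 2.80e-04) and by 1.59 in KO. Cd55, which protects cells from complement, fell by 1.29 in WT and by 1.60 in KO. S1pr1, the receptor that guides exit from lymphoid tissue, had -0.63 ± 0.22 in WT (0.0684) and -0.93 ± 0.22 in KO (0.00979). Ccr7, which guides cells towards the T cell zone, was at 0.38 ± 0.14 in WT (adjusted p = 0.0876) and 0.28 ± 0.14 in KO (0.165), or 0.37 ± 0.12 in KO without that library (0.0432).

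Neither transitional marker was called in either genotype. Cd93 encodes a C-type lectin-like receptor (chr2:148436651-148443535, minus strand, protein coding) and held 29.5, 38.6 and 39.3 CPM in WT at 0 h and 51.4, 46.5 and 45.9 at 2 h. In KO it held 35.8, 57.5 and 41.6 CPM at 0 h and 75.5, 40.0 and 45.3 at 2 h. The WT groups did not overlap, while the KO groups did, with the highest value again in KO 2 h replicate 1. The change was 0.42 ± 0.23 in WT (adjusted p = 0.250) and 0.23 ± 0.24 in KO (0.482), and without KO 2 h replicate 1 the KO value was -0.068. With only WT libraries fitted, the WT value was called (adjusted p = 0.0484).

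Cd24a encodes heat-stable antigen, a small anchored glycoprotein that falls as B cells mature (chr10:43579169-43584265, plus strand, protein coding). WT libraries held 235, 183 and 267 CPM at 0 h and 248, 164 and 237 at 2 h. KO libraries held 282, 264 and 249.8 at 0 h and 287, 244 and 271 at 2 h. All libraries were within 164 to 287 CPM, the narrowest range of the 9 in proportion, and the groups overlapped. The change was -0.076 ± 0.18 in WT (adjusted p = 0.815; 95% interval -0.42 to 0.27) and 0.0093 ± 0.18 in KO (0.976; -0.34 to 0.36).

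Of 12 tested transitional and immature genes, 1 was called higher and 3 lower in WT, and 2 higher and 4 lower in KO, against 10.7% and 9.06% of all genes in WT and 14.1% and 13% in KO. In KO, 1 was called higher and 4 lower when KO 2 h replicate 1 was left out. Rag1, a subunit of the V(D)J recombinase, fell from 2.90 to 4.33 CPM in WT at 0 h to 0.324 to 0.942 at 2 h, which in part is near the level of 3 counts. Its fitted change was -2.52 ± 0.55 in WT and -2.23 ± 0.53 in KO. Vpreb3, which pairs with immunoglobulin chains in immature B cells, fell by 1.56 in WT and by 1.24 in KO, and Ly6d by 1.30 and by 1.07. Myb, a transcription factor of dividing lymphocytes, rose by 1.51 ± 0.30 in WT and 1.85 ± 0.31 in KO. Sox4 was called in KO at 2.01 ± 0.68 (adjusted p = 0.0462), with 125 CPM in KO 2 h replicate 1 and 16.7 to 29.97 in the other 2. Without that library its KO change was 0.76 ± 0.47 and was not called (adjusted p = 0.265).

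Of 14 tested B-1 cell genes, which include Cd9, 5 were called higher and none lower in WT, and 5 higher and 1 lower in KO, against 10.7% and 9.06% of all genes in WT and 14.1% and 13% in KO. In KO, 5 were called higher and none lower when KO 2 h replicate 1 was left out, and the median change of the list went from 0.48 to 0.17. Cd5, the surface marker of B-1a cells and an inhibitor of receptor signals, rose from 6.27 to 10.5 CPM in WT at 0 h to 13.98 to 26.7 at 2 h, a change of 1.39 ± 0.31, and by 1.73 ± 0.32 in KO. Ahr, the aryl hydrocarbon receptor, rose by 3.01 ± 0.44 and 3.09 ± 0.45, and Nfatc1, a factor of calcium signalling, by 1.33 ± 0.33 and 1.01 ± 0.33. Spn, which encodes CD43, lay between 20.8 and 45.2 CPM in 11 libraries and at 125 CPM in KO 2 h replicate 1, and its KO change was 0.90 with that library and -0.18 without it, not called in either case. Bhlhe41, a regulator of B-1 cells, lay between 13.6 and 45.9 CPM and was not called.

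The Notch pathway as a whole had 37 tested genes of 41 listed, of which 2 were called higher and 10 lower in WT, and 2 higher and 13 lower in KO. Over all genes tested, 10.7% were called higher and 9.06% lower in WT, and 14.1% and 13% in KO. With KO 2 h replicate 1 left out, 3 were called higher and 14 lower of 38 tested in KO, with a median of -0.38. The median change with all libraries was -0.35 in WT and -0.27 in KO, beside 0.0091 and 0.043 over all genes tested. Among receptors, Notch1 fell with Notch2, by 0.64 in WT and by 0.78 in KO. Among ligands, Dll1 fell by 1.66 and by 1.06, from a level of only 5.19 to 7.57 CPM in WT at 0 h. Of the enzymes that process the receptor, Adam10, the surface protease, rose by 0.85 ± 0.17 in WT and 0.75 ± 0.17 in KO, and Psen2, a part of gamma-secretase, fell by 0.45 and by 0.46. Lfng, a glycosyltransferase that tunes ligand choice, fell by 0.70 and by 0.78.

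The nuclear members and targets were mixed. Rbpj lay between 25.3 and 38.8 CPM, with changes of 0.17 ± 0.13 and 0.20 ± 0.13 that were not called. The coactivators Maml1 and Maml2 fell by 0.42 and by 0.61 in WT and by 0.56 and by 0.71 in KO. The target Nrarp, which feeds back on the pathway, fell from 9.70 to 14.6 CPM to 2.59 to 3.86 CPM in WT, by 1.86 on the log2 scale, and by 1.43 in KO. The targets Hes1 and Hes5 had changes of -0.51 ± 0.33 and -0.32 ± 0.37 in WT and were not called in either genotype. Nrarp and Dtx1, both known targets, were thus on opposite sides of 0, with Dtx1 not called. Spen, which represses through RBPJ, rose by 0.57 ± 0.18 and 0.69 ± 0.18.

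**Figure D5:**
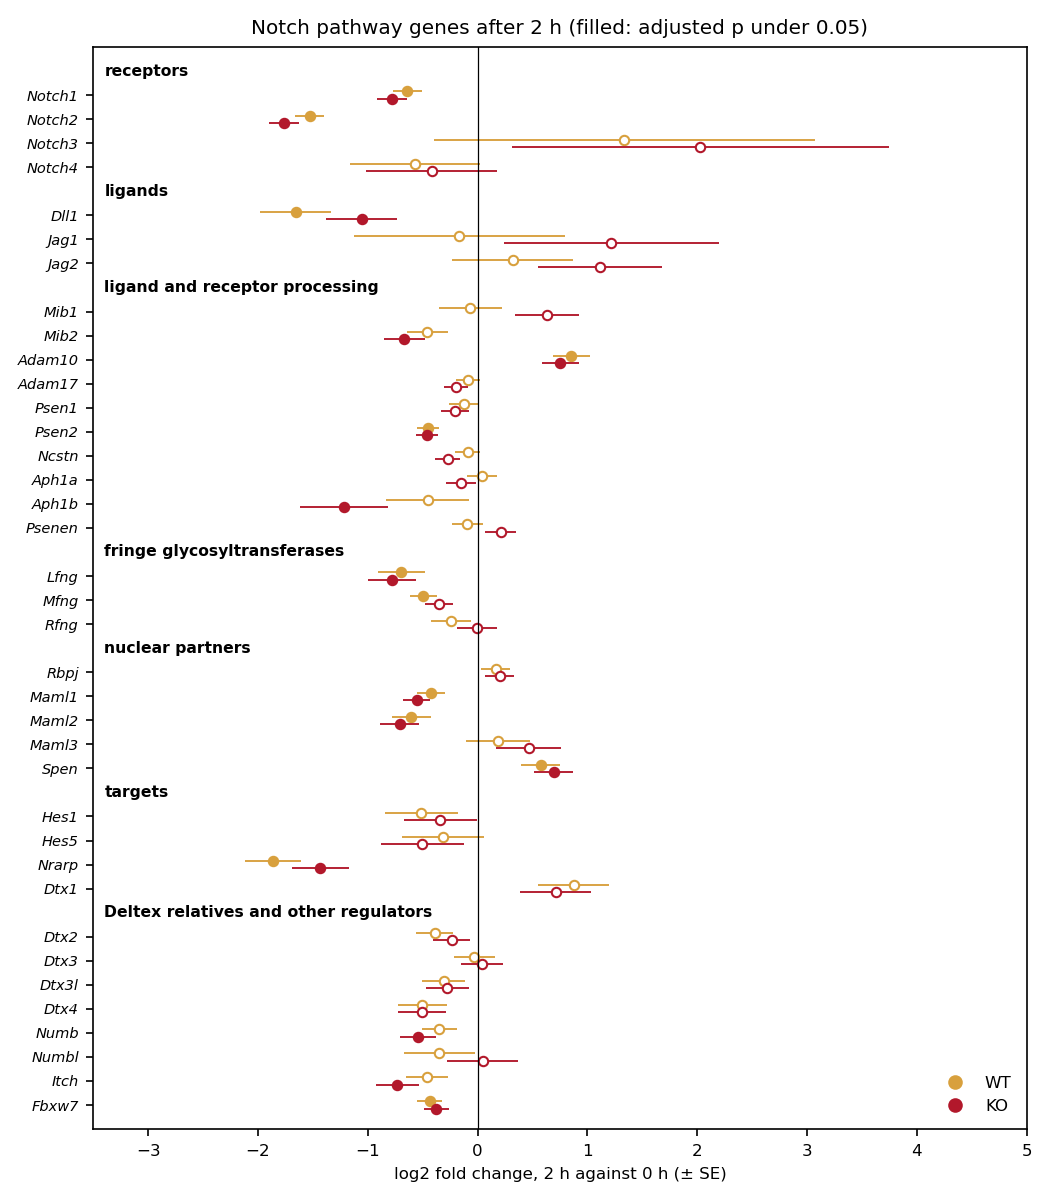
Log2 fold change at 2 h against 0 h with SE (x axis) of the tested Notch pathway genes (y axis), in WT and in KO; filled points had an adjusted p under 0.05. Notch2, Nrarp and Dll1 lie farthest to the left among the called genes of WT, and Adam10 and Spen are the genes called higher.

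Between the genotypes, none of the 9 markers was called at 0 h or at 2 h, and none was called for the difference between the 2 responses. The background was 0% in all 3 comparisons by edgeR, so that the members' count is that of the whole table. At an unadjusted p under 0.05 there were 91 genes at 0 h, 640 at 2 h and 40 for the difference of responses, and 0 of the 9 members in each. DESeq2 called 1 gene at 0 h, 2 genes at 2 h and 0 for the difference. No member's KO and WT libraries were apart at either time, while 5.85% of genes were at 0 h and 8.22% at 2 h (4.62% with KO higher and 3.6% with KO lower).

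At 0 h the fitted KO against WT differences of the 9 ran from -0.045 for Cr2 to 0.52 for Cd9. Leaving out 1 library at a time, Cd9 ran from 0.21 to 1.04 and Cd93 from 0.11 to 0.46. Fcer2a was at 0.27 ± 0.30 (95% interval -0.32 to 0.86) and was higher in KO in each of the 3 batches, by 0.19, 0.38 and 0.26 on the log2 scale. Cd93 was at 0.32 ± 0.23 and also higher in each batch (0.28, 0.57 and 0.080). Cd9 was higher in each batch too, by 1.30, 0.65 and 0.040, while Dtx1 was lower in KO in each batch (-0.0021, -0.076 and -0.050). At neither time was the share of all genes with the same sign in the 3 batches computed. The Notch pair was closer: Notch2 was at 0.042 ± 0.13 (-0.21 to 0.30) and Dtx1 at -0.042 ± 0.32 (-0.68 to 0.59). Cr2 was at -0.045 ± 0.30 (-0.64 to 0.55), Mzb1 at 0.14 ± 0.30, Cd1d1 at 0.17 ± 0.27 and Cd24a at 0.22 ± 0.18.

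At 2 h the largest differences were those of Cd9, 0.77 ± 0.43 (95% interval -0.081 to 1.61), and of Mzb1, 0.50 ± 0.31 (-0.11 to 1.11). Both were higher in KO in each of the 3 batches, Cd9 by 1.23, 0.34 and 0.48 and Mzb1 by 0.73, 0.20 and 0.47. Cd24a was at 0.30 ± 0.18 (-0.045 to 0.65) and higher in KO in each batch, by 0.21, 0.57 and 0.19. Without KO 2 h replicate 1, Cd9 was at 0.23 and Mzb1 at 0.34. Fcer2a changed sign without that library: its batch differences were -1.14, 0.37 and 0.15, and the fitted value of -0.078 became 0.26. Dtx1 had -1.03, 0.044 and -0.040 in the 3 batches, and its fitted value of -0.21 became 0.13. Notch2 was at -0.19 ± 0.13 (-0.45 to 0.069) and Cd1d1 at -0.0071 ± 0.28.

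The difference between the KO and WT responses ran from -0.35 for Fcer2a to 0.35 for Mzb1 on the log2 scale, and the widest interval was that of Cd9 (-0.93 to 1.43). Mzb1 was at 0.35 ± 0.43, Fcer2a at -0.35 ± 0.43 and Notch2 at -0.23 ± 0.19 (95% interval -0.60 to 0.13). The Fcer2a value became -0.013 without KO 2 h replicate 1.

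Genes whose level over the 12 libraries was like that of a member were found by Pearson's r of log2 CPM. For Notch2 the highest were Man2a1 (r = 0.996), Rasgrp2 (0.995) and Irak3 (0.994), and for Cr2 Clptm1l (0.990), Atp13a3 (0.987) and Tm9sf4 (0.986). Igf2r had 0.979 with Dtx1, and Mzb1 had Gimap1 (0.991) and Gbp3 (0.985). Fcer2a was followed by Slc30a5 (0.973), Cd1d1 by Napsa (0.962), Cd9 by Cnpy2 (0.930), Cd93 by S100a1 (0.928) and Cd24a by Serpinb1a (0.874). The lowest of these values was that of Cd24a, the member that varied least. Among the members themselves, Cd9 and Cd93 shared r = 0.76, or 0.54 without KO 2 h replicate 1, where both were highest.

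The share of Rn45s ran with some members and not others, over 12 libraries and as a description: r with its log2 share was -0.64 for Fcer2a, -0.61 for Cd1d1, -0.52 for Mzb1 and 0.58 for Cd93, against 0.025 for Cr2, 0.018 for Dtx1 and -0.38 for Notch2. In the 6 libraries with less than 10% Rn45s, Cd93 was 29.5 to 45.9 CPM, and in the other 6 it was 38.6 to 75.5 CPM. Fcer2a was 434 to 655 CPM in the former and 224 to 542 in the latter. Each of these sets holds libraries of both genotypes and both times, but the times are uneven. The set with more Rn45s holds more 2 h than 0 h libraries, and the other set more 0 h than 2 h libraries. Batches are uneven too: the set with more Rn45s holds every library of batch 2, the 2 h libraries of batch 1 and none of batch 3. The r values therefore do not tell Rn45s, time and batch apart. Taking the Rn45s row out of the tables changed the call of none of the 9. The part of what moves with Rn45s in the results was otherwise not tested.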

How the data were processed

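RNA from 12 libraries was compared: WT and KO at 0 h and 2 h, 3 libraries each, grouped by the sample titles. The deposited values are raw counts per gene symbol, whole numbers with a different total in each library, 1 table a library. STAR and the mouse build mm10 are named in the submitters' processing notes. Neither the version nor the counting tool, strand setting or annotation is given in the sources used here.

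Genes were kept with filterByExpr over the 4 groups (12242 of 24046), scaled with TMM (factors 0.522 to 1.20) and fitted in edgeR 4.0.16 (R 4.3.3) by the quasi-likelihood F test, with 1 mean per group over all 12 libraries. P values are two-sided and Benjamini-Hochberg adjusted over all 12242 genes, and a gene was called under 0.05. Only then is "rose", "fell" or "called" used. SE is the log2 fold change divided by the square root of F. CPM per kb uses the merged exons of GENCODE vM21, which may not be the annotation counted. A level of 3 counts corresponds to 0.183 to 1.02 CPM in the 12 libraries and covers counting error only. Of 23 gene lists, only counts and medians are given, with no set test. Values were named for the 9 members, Jmjd1c and Rn45s, up to 4 members of a list by p and those that carry its description, and the genes most like each member by Pearson's r (prior count 2; predicted, immunoglobulin and sex-linked genes left out). Values of 3 genes that this rule named are not reported here. The scripts were tested on simulated data. The members and the lists were chosen with earlier results of these data known.

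The labels give a batch number shared by genotypes and times, and the library names share a number between the 0 h and the 2 h library of 1 WT or KO replicate, which was taken as the animal; the labels do not say that these are separate animals, and the p values otherwise measure only the spread between samples. The batch number pairs the samples by the labels. Deviations from the group means correlated between -0.40 and 0.86 in 18 pairs with the same number and between -0.76 and 0.62 in 36 pairs with different numbers. No pair of replicates agreed within counting noise (chi-square per degree of freedom 13.7 to 847). Alternatives were RLE factors, no filter, 1 CPM in 6 libraries, batch or animal as a block, only the groups compared, DESeq2 1.42.0, no Rn45s, and leaving out both 2 h libraries of batch 1 or each library in turn. DESeq2 with the batch block, the batch block without both 2 h libraries of batch 1, and the lists without KO 2 h replicate 1 were added after seeing the data.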

Additional observations from a re-analysis of the deposited data

How the results depend on the processing

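With 9 members and 5 comparisons, 898 of the recomputed values kept their direction and their side of the threshold, 24 passed it newly, 26 no longer passed it and 60 changed sign; the cause was not tested. The members called in KO at 2 h against 0 h, 2 as reported, were 4 by DESeq2 and by DESeq2 with the batch as a replicate block, and 5 with neither 2 h library of batch 1, whether or not the batch was a replicate block. Leaving out 1 library gave 1 to 5, the 5 without KO 2 h replicate 1; in WT, 4 as reported, it gave 1 to 5, the 1 on leaving out either WT 0 h replicate 3 or WT 2 h replicate 2. Genes called in WT, 2419, ran from 1278 (without WT 2 h replicate 2) to 3617 (without KO 2 h replicate 1). They were 1499 and 1476 on leaving out WT 0 h replicate 1 or 3, 1540 on leaving out WT 2 h replicate 3, and 5205 with the batch block and neither 2 h library of batch 1. In KO, 3316, they were 1735 with only KO libraries and 5514 with that block and omission. KO against WT at 0 h gave 1 gene by DESeq2, 4 by DESeq2 with the batch block and 5 with the batch block and omission, and at 2 h 2, 19 and 2, where edgeR gave 0. Beyond the calls named with Mzb1 and Cr2, the batch or animal block changed no member's call.

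All sign changes were in values that were not called. For KO at 2 h against 0 h, the omission of both 2 h libraries of batch 1 gave Fcer2a 0.098, Cd9 -0.14, Cd93 -0.10 and Cd24a -0.082, and with the batch as a replicate block 0.18, -0.37, -0.22 and -0.054; Cd24a was also -0.023 with no filter and -0.0083 without Rn45s. In WT Cd9 was -0.041 and, with the block, -0.24. For KO against WT at 2 h the omission gave Fcer2a 0.25, Dtx1 0.0076 and Cd93 -0.10, and with the block 0.26, 0.0031 and -0.098; Cd1d1 was 0.0038 with RLE factors and 0.022 with only the 2 h groups. For the difference of responses, Cd9 was -0.097 and Dtx1 0.048, and with the block -0.13 and 0.043.

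Leaving out 1 library at a time, the 2 h against 0 h change ran in WT from -0.12 to 0.71 for Cd9 and -0.23 to 0.086 for Cd24a, and in KO from -0.51 to 0.13 for Fcer2a, -0.10 to 0.68 for Cd9, -0.068 to 0.44 for Cd93 and -0.045 to 0.064 for Cd24a. KO against WT at 0 h ran from -0.13 to 0.079 for Cr2, -0.039 to 0.42 for Cd1d1, -0.20 to 0.12 for Dtx1, -0.024 to 0.13 for Notch2 and -0.031 to 0.35 for Mzb1. At 2 h it ran from -0.39 to 0.26 for Fcer2a, -0.51 to 0.11 for Cr2, -0.16 to 0.19 for Cd1d1, -0.43 to 0.13 for Dtx1 and -0.16 to 0.30 for Cd93. The difference of responses ran from -0.47 to 0.15 for Cr2, -0.43 to 0.031 for Cd1d1, -0.28 to 0.56 for Cd9, -0.39 to 0.17 for Dtx1, -0.49 to 0.022 for Cd93 and -0.082 to 0.22 for Cd24a. Cd1d1 and Cd9, at 25 to 286 and 47 to 186 counts a library, are the members that depth limits most.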
